A study of Mus musculus with 8 samples.

Results

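Solute carrier genes, the Slc genes, were taken as every gene whose name in at least 1 of the 4 deposited ac4C peak lists was Slc followed by a digit, and 195 of the 11417 genes with a peak met that rule. They came from 40 Slc families. Of these members 194 carried the symbol of a protein-coding gene in RefSeq, and the other was Slc22a13b-ps, listed as a pseudogene. The peaks came from acRIP-seq, in which RNA fragments are pulled down with an antibody to N4-acetylcytidine (ac4C) and called as peaks over input RNA. Mouse female germline stem cells (FGSCs), grown in culture and derived from ovary, were set against the germ cells that they form at day 3 of differentiation (Dif-FGCs), with 2 IP and 2 input libraries in each group. By the study's methods, differentiation took place on granulosa cells in a medium that held retinoic acid, BMP4 and bFGF, and the sources read do not say whether the granulosa cells were removed before RNA was taken. The labels give both groups the same ovary source and the same germ stem cell type, and they do not say whether the replicates were separate cultures, so p-values here measure the spread between these samples alone. Of 6 germline stem and early germ cell marker genes 0 to 1 had a peak in a list, of the meiotic markers Stra8 and Sycp3 neither had one in any list, and of 8 granulosa cell markers 1 had a peak in each FGSC list and 3 in each Dif-FGC list. The part of granulosa cell RNA in the results was not tested.

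Solute carriers are membrane proteins that move amino acids, sugars, ions, metals, nucleotides and vitamins across the plasma membrane and the membranes of organelles. The Slc25 family sits mainly in the inner membrane of mitochondria and exchanges metabolites with the cytosol. Zinc is handled by a pair of families, with Slc30 proteins moving zinc out of the cytosol and Slc39 proteins moving it in. The mark ac4C is an acetyl group on cytidine, written on mRNA by the enzyme NAT10 and studied for its effects on RNA stability and translation.

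Many of the strongest Slc peaks reached the first base of a listed transcript, so the first 30 transcribed bases are shown for 8 members. Of these, 3 were found in both libraries of one state only. The other 5 are, from each main class, the best ranked of those with a peak over these bases in every library. They were ranked by the fold of the strongest peak of the gene, which need not lie at the start. Slc2a6, the sugar carrier among them, stood in the middle of the lists by fold, with a mean rank of 48.5%. The sequences are from RefSeq (GRCm38.p6) and are written 5′ to 3′ as RNA sense with T for U. A listed start need not be the 5′ limit of the RefSeq gene, which for Slc7a6 lies at chr8:106168219. Capitals mark the first match to CNNCNNCN, the motif form that the study names for ac4C.
Slc17a5 (FGSCs only; chr9:78588016-78588045, minus strand): ccagcacggcgaagggctgtcctgccgaga
Slc25a39 (FGSCs only; chr11:102407488-102407517, minus strand): ggtctcaccgctctcccgggCGGCCGCTgt
Slc30a4 (Dif-FGCs only; chr2:122702634-122702663, minus strand): agtggctggggctCGGCCTCGgtccctggc
Slc7a6 (all 4 libraries; chr8:106168921-106168950, plus strand): gggccacgaggaggtagctggcgaggccga
Slc25a23 (all 4 libraries; chr17:57059834-57059863, minus strand): ctggcgcgggcggggacgactagcatttat
Slc2a6 (all 4 libraries; chr2:27027969-27027998, minus strand): gtagggcggagCTTCGCCTgctgtgctgag
Slc4a2 (all 4 libraries; chr5:24425232-24425261, plus strand): ggggcgcgcacggcgcgctgcggggggcgc
Slc30a9 (all 4 libraries; chr5:67306955-67306984, plus strand): atgacttccgggtcgccgaggcCGCCGGCC

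These starts were rich in G and C, with a median of 70.0% over the 79 Slc starts that a peak covered, against 63.3% over 372 listed Slc starts and 56.7% over all 32851 listed starts. The like value over covered starts of all genes was not taken, so covered Slc starts are not set apart from those of other genes. Some genes gave more than 1 covered start, and those of Slc44a1 and of Slc25a23 overlapped. A match to CNNCNNCN on the transcribed strand was present in 34.2% of the covered Slc starts, in 39.3% of the 28 that were covered in all 4 libraries, in 38.2% of the listed Slc starts and in 32.9% of all listed starts. On the opposite strand the letters matched in 41.9% of all listed starts, so a match within 30 bases was common on either strand and is a description of the sequence alone.

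Slc peaks were found in similar numbers in both states. There were 269 Slc peaks in 142 genes for FGSC 1, 188 in 119 for FGSC 2, 309 in 150 for Dif-FGC 1 and 173 in 103 for Dif-FGC 2, and sets of 4 values further on keep this order of libraries. Replicate 1 had more Slc genes than replicate 2 in both groups, and the groups overlapped. The FGSC libraries had a mean of 130.5 ± 16.3 Slc genes and the Dif-FGC libraries 126.5 ± 33.2 (SD, n = 2 in each group), a difference of -4 genes as Dif-FGCs minus FGSCs (exact two-sided permutation test, p = 1). The smallest p that 2 against 2 libraries can give is 0.333, so that no comparison between the groups could pass the usual threshold.

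As a share of all genes with a peak, Slc genes made up 1.57% and 1.49% in the FGSC libraries and 1.75% and 1.59% in the Dif-FGC libraries. Both Dif-FGC values lay above both FGSC values, by 0.143 percentage points between the means (exact permutation test, p = 0.333). Slc genes carried fewer peaks each than the average gene, with 1.89, 1.58, 2.06 and 1.68 peaks per gene against 2.52, 2.04, 2.63 and 2.15 over all genes with a peak. Read depth is not in the tables, and absence from a list does not show absence of ac4C. The authors' FDR of the Slc peaks was never below 51.03%, it was 100% for all Slc peaks of Dif-FGC 2, and 0 Slc peaks had an FDR of 5% or less.

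Of the 195 members, 73 had a peak in all 4 libraries, 29 in 3 libraries, 32 in 1 library of each group, 7 in both FGSC libraries only, 3 in both Dif-FGC libraries only and 51 in a single library. For 60 of the 73, peaks merged where they overlapped gave a site held in all 4 libraries. The rest of the 73 were found in every list as genes, not at a site shared by all. Among the 51 were 18 of FGSC 1, 9 of FGSC 2, 19 of Dif-FGC 1 and 5 of Dif-FGC 2, the order of list length in each group. The 4 lists held 22791, 16290, 22480 and 13920 peaks. By the gene ontology terms attached in the deposited lists to 194 members, 89 were placed at the plasma membrane, 45 in the mitochondrion, 22 in the Golgi apparatus, 21 in the endoplasmic reticulum and 11 in the lysosome, and a gene could hold several of these terms.

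The classes of carrier differed in how many of their genes had a peak. Zinc carriers stood highest, with 20 of 24 RefSeq genes (83.3%) peaked in at least 1 library, followed by mitochondrial carriers with 33 of 47 (70.2%). Sugar carriers had 15 of 28 (53.6%), ion carriers 31 of 60 (51.7%), amino acid carriers 26 of 62 (41.9%) and all other carriers 66 of 150 (44%). For comparison, 194 of 375 RefSeq Slc genes (51.7%) and 10434 of 21900 protein-coding genes (47.6%) had a peak in any library. For a peak in all 4 libraries the classes lay closer, at 29.2% of zinc, 23.4% of mitochondrial, 21.7% of ion, 21.4% of sugar and 19.4% of amino acid carriers, beside 21.2% of all protein-coding genes. The share that counts any library therefore included many genes found once. Genes are not replicates, and no test was run across them.

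**Figure D1:**
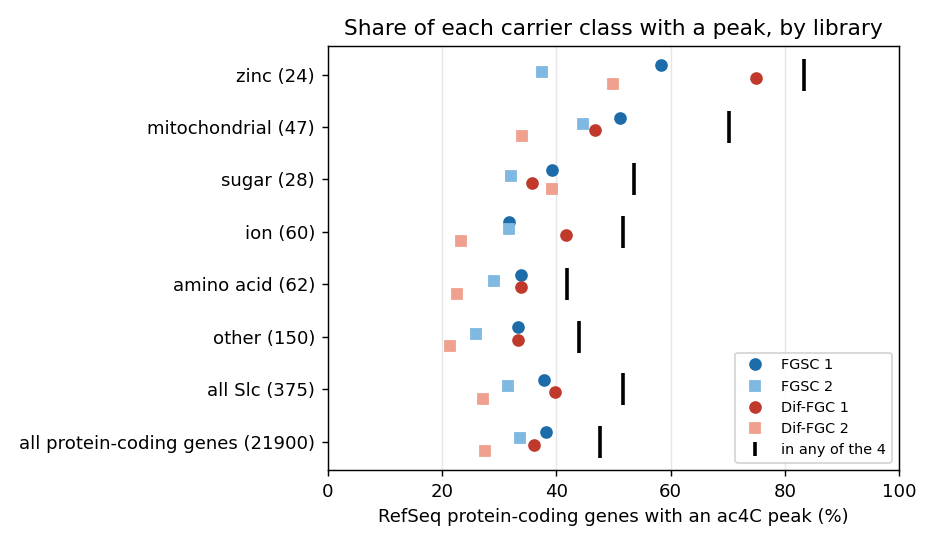
Percent of the RefSeq protein-coding genes of each carrier class with an ac4C peak (x axis), by library (coloured points) and in any of the 4 libraries (black bars); the number of genes in a class is in brackets. Zinc carriers reached 75.0% in Dif-FGC 1 and 37.5% in FGSC 2, a wider spread between libraries than in any other class shown.

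Mitochondrial carriers were set against amino acid, sugar, ion and zinc carriers as 1 group of 174 genes. A peak was found for 51.1%, 44.7%, 46.8% and 34.0% of Slc25 genes and for 37.4%, 31.6%, 42.5% and 29.3% of the others. Over all protein-coding genes the shares were 38.2%, 33.6%, 36.2% and 27.4%. The Slc25 share was higher than that of the pooled group in every library. The Slc25 shares themselves overlapped between FGSCs and Dif-FGCs. The excess over the pooled group did not, at 13.7 and 13.1 percentage points in the FGSC libraries and 4.28 and 4.73 in the Dif-FGC libraries. The higher Slc25 share did not hold against each class alone. Zinc carriers stood above Slc25 in FGSC 1 (58.3%), Dif-FGC 1 (75.0%) and Dif-FGC 2 (50%), and below it in FGSC 2 (37.5%). Sugar carriers stood above it in Dif-FGC 2 alone (39.3%), and amino acid and ion carriers in no library. The excess was smaller in Dif-FGCs by 8.88 percentage points between the means (exact permutation test, p = 0.333, the smallest possible). It was not stable to list length. When every list was shortened to its 13920 highest scores the excess was 1.86, 7.43, 7.84 and 4.73 percentage points, and with only the peaks above the median fold of their list it was 1.63, 0.183, -1.48 and 0.587.

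Among the 33 mitochondrial members 11 had a peak in all 4 libraries. The best ranked was Slc25a33, a pyrimidine nucleotide carrier, whose peak at the transcript start (chr4:149774000-149774277) had folds over input of 78.4, 33.0, 57.6 and 73.7. Because fold depends on the list, strength is given here as a rank, the percent of a list's peaks with a fold at least as high, and Slc25a33 stood at 3.53%, 10.6%, 4.15% and 2.51%. It was thus near the top of every list. The ATP-Mg/phosphate carriers Slc25a23 and Slc25a24 followed, with mean ranks of 6.88% and 12.6%, and the start peak of Slc25a24 had the same limits in all 4 lists. Slc25a4, an ADP/ATP carrier, had its peak at ranks of 35.5%, 51.3%, 76.9% and 51.7%, and its relative Slc25a5 had no peak in any list. The phosphate carrier Slc25a3 had a single peak, in FGSC 1, with a rank of 99.3%. The median rank of the best peak of a Slc25 gene was 42.2% to 52.6% by library, against 28.5% to 34.6% over protein-coding genes. It was 35.2% to 39.3% over all Slc genes. For amino acid carriers it was 27.2% to 53.6% and for sugar carriers 23.5% to 53.5%. For ion carriers it was 25.5% to 40.9% and for zinc carriers 21.8% to 40.4%.

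Amino acid carriers included the strongest Slc peaks of the series. Slc7a6, the light chain of a cationic and neutral amino acid exchanger, had a peak at the first base of a listed transcript. Its limits were identical in every list (chr8:106168921-106169136) and its folds were 110.1, 130.9, 130.8 and 55.4. The mean rank of Slc7a6, 2.30%, was the best of all 73 members found in all 4 libraries. Slc7a5, the large neutral amino acid exchanger LAT1, had folds at chr8:121907066-121907694 of 73.2 and 178.4 in the FGSC lists and of 132.5 in Dif-FGC 2, and no peak at that locus in Dif-FGC 1. The 178.4 in FGSC 2 was the highest fold of any Slc peak in that list, and so was the 132.5 in Dif-FGC 2. Slc3a2, the heavy chain that carries Slc7a5 and Slc7a6 to the cell surface, had 1 peak with the same limits in all 4 lists, at ranks of 39.7%, 24.2%, 12.1% and 12.3%. Slc6a9, a glycine transporter, had a start peak at ranks of 16.1%, 15.5%, 11.2% and 10.3%, and 15 peaks in all. At the other end, the glutamate and neutral amino acid carriers of the Slc1 family had a peak in 1 of 7 genes, Slc1a5 in Dif-FGC 1, and the Slc6 family had 6 of 21.

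Ion carriers had the most peaks per gene of the main classes, with 2.44 peaks for each gene found in a list. This was close to the 2.41 of all protein-coding genes, while mitochondrial carriers had 1.57. Slc12a2, the sodium-potassium-chloride cotransporter NKCC1, had 16 peaks over the 4 lists. Slc24a3, a sodium/potassium/calcium exchanger, had 15, as had Slc38a10, Slc43a2 and Slc6a9. The mean rank of Slc12a2 was 8.57%. The potassium-chloride cotransporter Slc12a7 had mean rank 8.13% and the anion exchanger Slc4a2 9.01%. For Slc24a3 the start peak had identical limits in all lists and folds of 95.9, 44.3, 41.4 and 17.3. Of the Slc26 anion carriers 5 of 11 genes had a peak, and 0 had one in all 4 libraries.

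Zinc carriers were peaked in 8 of 10 Slc30 and 12 of 14 Slc39 genes, of which 2 and 5 were found in all 4 libraries. The shares of the class by library were 58.3%, 37.5%, 75.0% and 50%, with means of 47.9% ± 14.7 and 62.5% ± 17.7 (SD, n = 2 per group; exact permutation test, p = 0.667). The groups overlapped. Slc30a9 had 1 start peak with identical limits and ranks of 14.6%, 21.8%, 15.2% and 14.4%, the narrowest range of the 3 best ranked zinc members. Slc39a14, an importer of zinc and manganese, had folds of 69.1, 19.5, 12.9 and 20.6 at chr14:70351280-70351425, with the same limits in every list. Slc39a8, a close relative with the same cargo, reached a fold of 117.9 in FGSC 1 and 137.6 in FGSC 2 but 18.02 and 8.34 in the Dif-FGC lists, and the best peaks of the FGSC libraries lay at different loci, chr3:135825790-135825940 in FGSC 1 and chr3:135826090-135826410 in FGSC 2. Its rank was 1.75% and 1.90% in FGSCs and 18.4% and 47.4% in Dif-FGCs, without overlap, and it was chosen by its mean rank, so that this is a description.

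Sugar carriers had 6 members in all 4 libraries, and the best ranked were Slc45a4 (mean rank 14.7%), Slc45a3 (15.8%) and Slc37a3 (21.7%). The glucose transporter Slc2a1 had its best peak at ranks of 54.4%, 67.3%, 54.5% and 15.2%, and Slc2a3, a glucose transporter of high affinity, at 20.6%, 53.5%, 10.7% and 23.1%. Only Slc45a3 of these 5 kept every rank below 25%. Of the carriers outside the 5 classes, Slc35d1, which brings UDP-glucuronic acid and UDP-N-acetylgalactosamine into the endoplasmic reticulum, had folds of 35.7, 63.6, 115.6 and 34.6 and a mean rank of 6.50%, and Slc35g1 had a mean rank of 10.5%. The Slc35 family of nucleotide sugar carriers and relatives had 20 of 27 genes with a peak, while the Slc22 family of organic ion carriers, with 25 RefSeq genes, had 6 members in the lists, the pseudogene Slc22a13b-ps among them.

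**Figure D2:**
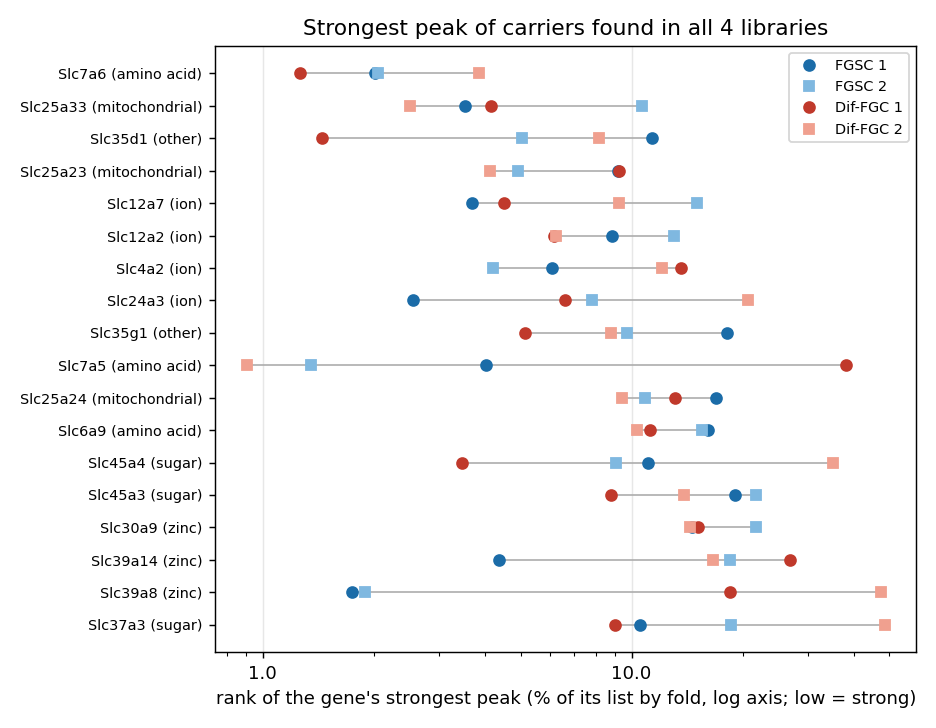
Rank of the strongest peak (x axis, percent of the list by fold over input, log scale, low values are strong) for the 10 best members found in all 4 libraries and the 3 best of each main class, with 1 point a library and a line from lowest to highest. Slc7a6 stayed between 1.26% and 3.86%, while Slc7a5 ran from 0.905% in Dif-FGC 2 to 38.1% in Dif-FGC 1.

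Members found in both libraries of one state and in neither of the other were few. Of 112 Slc genes that both replicates of a group held, 7 (6.25%) were found in FGSCs only, where the same rule called 7.82% of all genes, and 3 (2.68%) in Dif-FGCs only, where it called 2.42% of all genes. Both shares lay close to those of all genes. The 7 were Slc17a5, Slc25a10, Slc25a39, Slc25a46, Slc35b2, Slc52a2 and Slc6a12, and the 3 were Slc25a1, Slc30a4 and Slc38a9. By class they made up 4 of 19 mitochondrial, 2 of 18 amino acid, 1 of 12 zinc, 0 of 14 ion, 0 of 8 sugar and 3 of 37 other carriers held by both replicates of a group, and these class counts were not tested. The rule itself sets their presence and absence, and their values are given without a test.

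Slc35b2 was the strong one among them. It encodes the Golgi carrier of PAPS, the donor of sulfate groups, and its peak began 28 bases after the listed start (chr17:45563964-45564773) with a fold of 61.4 in FGSC 1 and 60.6 in FGSC 2 and ranks of 5.18% and 5.36%. The other 9 had a best peak below the median fold of the list in at least 1 library. Slc17a5, the lysosomal exporter of sialic acid, had its peak at the transcript start (chr9:78587874-78588045) with folds of 10.7 and 5.98. Slc25a39, which supplies mitochondria with glutathione, had a start peak with identical limits in both FGSC lists (chr11:102407390-102407544) and folds of 15.5 and 3.61. These 3 genes had the same locus in both FGSC libraries. For the dicarboxylate carrier Slc25a10, the mitochondrial shape factor Slc25a46, the riboflavin transporter Slc52a2 and the betaine and GABA transporter Slc6a12, the peaks of FGSC 1 and FGSC 2 lay at different loci, with best folds of 10.7 and 2.78, 5.21 and 2.09, 8 and 10.2, and 14.3 and 4.40. They were found again as genes, not as sites.

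In Dif-FGCs only, Slc25a1, the mitochondrial citrate carrier, had 1 peak with identical limits (chr16:17925211-17925927) that reached the 3′ end of the gene, with a fold of 4.45 in Dif-FGC 1 and 6.80 in Dif-FGC 2. Slc30a4, which loads zinc into vesicles, had a start peak with folds of 18.6 and 4.38, at a place where RefSeq also lists 4930417H01Rik, and without strand the peak cannot be told from that gene. Slc38a9, an arginine sensor of the lysosome, had folds of 5.79 and 7.92 at different loci. Ranks in the 3 genes ran from 17.8% for Slc30a4 in Dif-FGC 1 to 84.0% for the same gene in Dif-FGC 2. When every list was shortened to its 13920 highest scores, 4 of the 7 and 2 of the 3 were found again in their state only, and with only the peaks above the median fold of their list 1 of the 7, Slc35b2, and 0 of the 3.

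**Figure D3:**
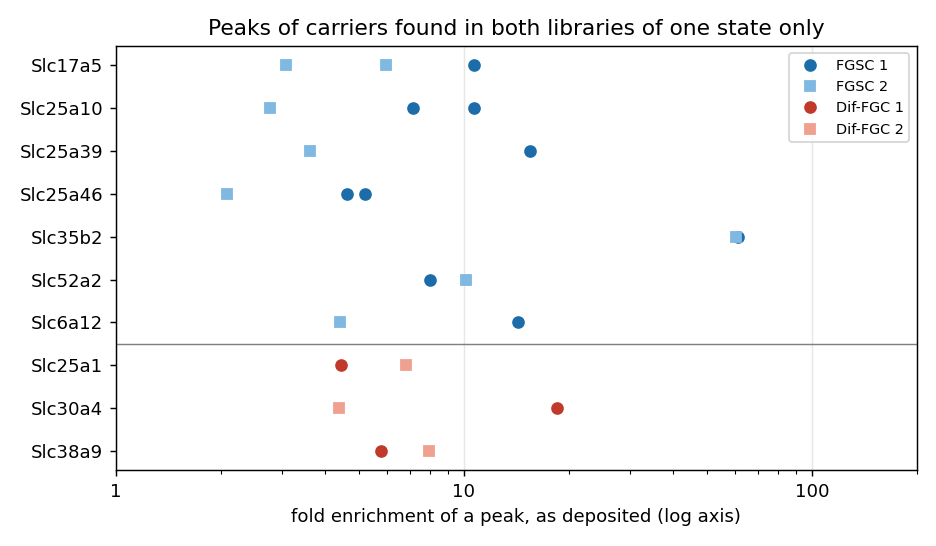
Fold over input as deposited (x axis, log scale) of every peak of the 7 members found in both FGSC libraries only (above the line) and the 3 found in both Dif-FGC libraries only (below it). Slc35b2, at 61.4 and 60.6, stood apart from the rest, whose folds were 18.6 or less.

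State differences were also sought at single sites. Merging peaks that shared at least 1 bp gave 543 Slc loci, of which 75 had a peak in all 4 libraries and 338 in 1. A library held a Slc locus through a peak of any gene name, while gene counts used the Slc name alone. Slc39a9 thus had a peak in Dif-FGC 2 only, at a locus held in all 4 libraries. Of 151 loci that both replicates of a group held, 15 (9.93%) were held by FGSCs only, where 10.5% of all loci were, and 21 (13.9%) by Dif-FGCs only, where 10.6% were. Of these, 12 of the 15 and 19 of the 21 lay in genes that had other peaks in the opposite state. The like share over all state-only loci was not taken, so these counts are not set apart from those of other genes. Of the loci that both replicates of a group held, FGSCs alone had 3 of 23 in mitochondrial, 2 of 27 in amino acid, 2 of 23 in ion, 2 of 17 in zinc and 1 of 13 in sugar carriers. Dif-FGCs alone had 2 of 23, 8 of 27, 0 of 23, 5 of 17 and 2 of 13 in the same order of classes. In other carriers FGSCs alone had 4 and Dif-FGCs alone 3 of 38, and in the Slc genes that encode no carrier each had 1 of 10. The class counts were not tested against each other or against the 10.5% and 10.6% of all loci.

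Among members peaked in both states, the best ranked FGSC-only locus was in Slc12a4, a potassium-chloride cotransporter, at chr8:105960685-105960770 with folds of 20.8 and 24.9, while its start held a peak in all 4 libraries. The next were in the GABA transporter Slc6a13, with 31.0 and 5.92, and in the zinc exporter Slc30a1, with 12.8 and 9.70. A start locus of Slc38a6, with folds of 15.1 and 4.60, was also FGSC only, though RefSeq lists Trmt5 across a Slc38a6 peak. The remaining 4 of the best 8, in Slc39a11, the creatine transporter Slc6a8, the mitochondrial NAD carrier Slc25a51 and the ornithine carrier Slc25a15, had folds of 5.95 to 15.5 in FGSC 1 and 3.46 to 6.49 in FGSC 2, with the lower value in FGSC 2 except in Slc25a15.

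The best ranked Dif-FGC-only locus was in Slc7a5, at chr8:121896428-121896565 with identical limits and folds of 8.34 and 18.1, and the same gene had a second one at chr8:121888322-121888427 with 3.39 and 8.69. Both lay away from the strong peak of that gene given above. Slc6a9 also had a pair of Dif-FGC-only loci, with 13.2 and 7.63 at the first and 7.08 and 3.70 at the second. Other amino acid carriers in this group were the taurine transporter Slc6a6 (6.77 and 12.1), Slc7a8, also known as LAT2 (5.95 and 6.67), Slc43a2 and Slc38a10. The zinc carriers were Slc39a11 (12.8 and 8.20), Slc39a14 (5.61 and 7.12), Slc39a4 (9.47 and 4.65), Slc39a13 and Slc30a4, and Slc39a11 thus had a locus of either kind at different places of the gene. The fatty acid carrier Slc27a4 had a start locus with 20.6 and 8.06, the monocarboxylate carrier family member Slc16a11 had 12.1 and 5.51, and Slc2a1 had 6.25 and 7.72. Of the 21 loci 13 (61.9%) had the same first and last base in both libraries, against 48.4% of all Dif-FGC-only loci, and of the 15 FGSC-only loci 2 (13.3%), against 25.2%.

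**Figure D4:**
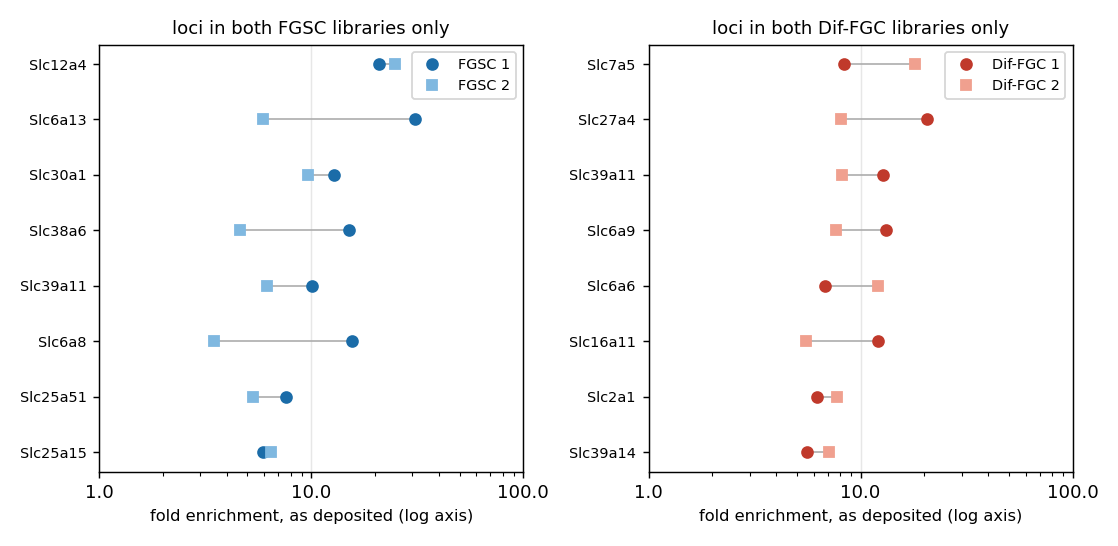
Fold over input as deposited (x axis, log scale) in both replicates at the 8 best ranked loci held by FGSCs only (left) and by Dif-FGCs only (right), in Slc genes with peaks in both states; a line joins the replicates of a locus. Slc12a4 had 20.8 and 24.9 on the left, and Slc7a5 8.34 and 18.1 on the right.

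Position within the gene could be read for 736 of the 939 Slc peaks, in 150 members with a listed start. A peak was counted as a start peak when it reached the first 50 transcribed bases of any listed start. This held for 27.8%, 36.0%, 22.3% and 43.2% of Slc peaks, against 22.0%, 28.0%, 20.7% and 29.2% of all placed peaks. The Slc share was the higher in each library, and the groups overlapped (means of 31.9% ± 5.78 and 32.7% ± 14.8, SD, n = 2 per group; exact permutation test, p = 1). Start peaks made up 39.5% of sugar, 38.3% of zinc, 34.7% of mitochondrial, 28.0% of amino acid and 21.2% of ion carrier peaks. By locus the contrast was wider, where a locus counted when any of its peaks reached the start. A start was reached by 42 of 60 placed Slc loci held in all 4 libraries (70.0%) and by 22 of 269 held in 1 library (8.18%), where the shares over all loci were 44.8% and 7.98%.

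**Figure D5:**
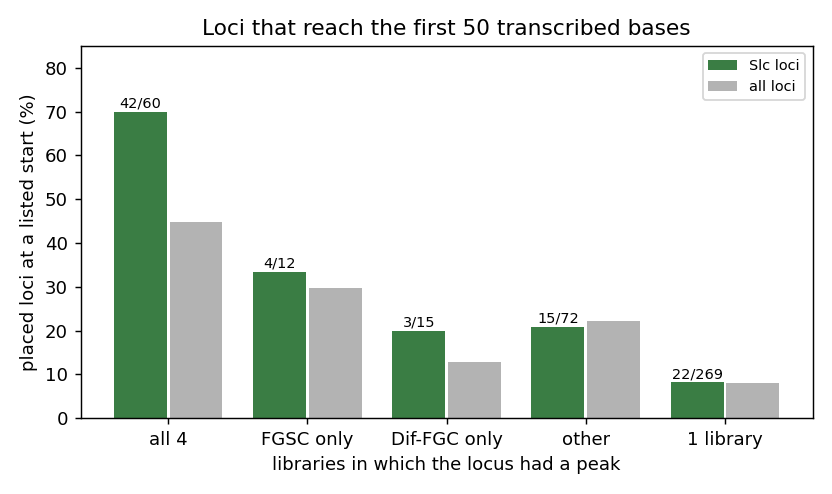
Percent of placed loci that reach the first 50 transcribed bases (y axis), for Slc loci (green, with counts above the bars) and all loci (grey), by the libraries in which a locus had a peak. Slc loci of all 4 libraries stood at 70.0% and all loci at 44.8%.

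Slc loci of all 4 libraries also had the higher folds. A locus had to be called in every list to be in that group, so the grouping itself favours high folds. Medians over all loci were not taken. The median fold of Slc peaks at loci of all 4 libraries was 17.9, 11.8, 15.7 and 13.3, and at loci of 1 library it was 7.32, 4.25, 4.99 and 5.05. State-only loci lay between these, at 10.7 and 5.31 in the FGSC lists and 6.70 and 6.22 in the Dif-FGC lists. Another RefSeq gene was listed across 48 of the 939 Slc peaks, in 22 members, and for those peaks the gene of origin is uncertain.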

How the data were processed

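ac4C was profiled by acRIP-seq of rRNA-depleted, fragmented RNA in 8 libraries, an IP and an input for each replicate. The submitters' processing notes name cutadapt, HISAT2, MACS2 and the mm10 build without versions. Per the file headers and labels, the authors deposited 1 list of mRNA peaks per IP library over its input. The deposited fold is a ratio, IP to input; the authors' score is 10 times the negative log10 of a p-value, the deposited FDR is a percent and the other value used, peak length, is in bp. The form of score and FDR resembles MACS releases before MACS2, so the exact definition of fold is not settled. The lists carry neither strand nor read counts, so depth is unknown. Exon and UTR annotation was not used, and the 3′ end was taken from RefSeq gene limits.

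Starts were read as counted from 0, since 2800 peak starts plus 1 equalled a RefSeq gene start and 90 did without it, and are printed counted from 1. Classes followed the Slc family, except for genes assigned singly within families such as Slc5 and Slc6. The 4 genes that encode no carrier (Slc9a3r1, Slc9a3r2, Slc7a6os and Slc4a1ap) were kept apart, Slc4a1ap after its values had been seen. Slc66a1, Slc66a2 and Slc49a4 count as genes without a peak, because the lists use their older names. Peaks sharing 1 bp were merged to loci, whatever gene they were named for. Exact two-sided permutation tests ran over the 6 ways to assign 4 libraries to 2 groups of 2. Genes named were all state-only members, the 10 best mean ranks of members in all 4 libraries, the 3 best of each main class, the 5 with most peaks (6 with ties) and the 10 best state-only loci of each kind, and others were picked for their role after their values were seen. One gene that this rule names is not reported here. Members and lists were chosen with earlier results of these data known. Merging and counting were tested on simulated data. Python 3.11.15 and pandas 2.3.3 were used.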

Additional observations from a re-analysis of the deposited data

How the results depend on the processing

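The difference in the number of Slc genes changed sign when single libraries were left out, running from -27.5 to 19.5 genes, with 7.50 without FGSC replicate 1 and 19.5 without Dif-FGC replicate 2, around a value of -4. The difference in the Slc25 excess changed from -8.88 to 1.64 percentage points with every list shortened to the length of the shortest (p = 0.667, exact permutation test), was -1.35 with only the peaks above the median fold of their list, and ran from -9.20 to -8.57 over the libraries left out. The difference in the Slc share of genes with a peak stayed positive in every alternative run, from 0.0617 to 0.225 percentage points. Counts of state-only members and loci moved most. Leaving a library out loosens the state-only rule, as does asking for a peak in only 1 library of the state. Under these settings the gene counts could only stay or rise, so their rise does not measure stability. FGSC-only genes numbered 7, and 9 to 25 with a library left out. Dif-FGC-only genes numbered 3, 8 to 22 with a library left out and 5 above the median fold. FGSC-only loci numbered 15, 17 to 128 with a library left out, 8 with equal lists and 9 above the median fold, and Dif-FGC-only loci 21, 36 to 158 and 10 above the median fold. With a peak required in at least 1 library of the state and neither of the other, the counts were 34 and 27 genes and 187 and 187 loci. Requiring an overlap of at least 50% of the shorter peak gave 14 and 21 loci. Use of current RefSeq symbols gave 8 and 3 genes. The causes were not tested.

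The labels give replicate numbers 1 and 2 in both groups with no word on pairing. With the number as a replicate block the differences were the same, -4 genes, 0.143 and -8.88 percentage points, with p = 1, 0.5 and 0.5 (exact permutation over 4 assignments). The smallest p that an exact permutation over 4 assignments can give is 0.5, so no difference could pass the usual threshold with a block. This holds also with the numbers crossed, an alternative chosen after seeing the data. Deviations of log2 fold at 6160 loci of all 4 libraries correlated at -0.121 between same-numbered libraries.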
